A study of Homo sapiens with 6 samples.

Results

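The clustered protocadherins are cell-surface cadherins encoded in 3 neighbouring gene clusters on chromosome 5. Members were taken as the rows of the expression table whose gene symbol begins with PCDHA and a digit or C, with PCDHB and a digit, or with PCDHGA, PCDHGB or PCDHGC. This gave 52 of 19823 genes, of which 14 belonged to the alpha cluster, 18 to the beta cluster and 20 to the gamma cluster. Of these, 49 are protein-coding and 3, PCDHB17P, PCDHB18P and PCDHB19P, are transcribed pseudogenes. PCDHA1, PCDHB1, PCDHGA9 and PCDHGA12 were not among these rows and were not analysed here.

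RNA-seq was performed on glutamatergic iNeurons, which are made from human induced pluripotent stem cells by doxycycline-driven expression of the transcription factor NGN2. The WTc11 parental line used here also carries dCas9-KRAB, a transcriptional repressor that a guide RNA directs to a promoter, and it holds the β2-adrenergic receptor at its native level. In all 6 samples RBM12, which encodes a protein that binds RNA, was depleted by CRISPR interference, so no comparison with unmodified neurons was made. There were 3 untreated samples and 3 treated with isoproterenol, a β-adrenergic agonist whose dose and duration the labels do not give. The labels do not say whether the replicates came from separate differentiations, so the spread between these samples may be technical. The p-values below rest on that spread pooled in part over all genes tested, and not on a member's own samples alone.

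In a neuron, each promoter of these clusters is chosen more or less at random. Every alternative promoter of the alpha and gamma clusters precedes its own large variable exon, which encodes the extracellular and transmembrane parts of the protein and is spliced to constant exons that all members of the cluster share. Each beta gene is a single exon with no constant part. The proteins bind identical partners on neighbouring membranes and so give each neuron a surface identity that is used in self-avoidance of dendrites and axons. Promoter choice depends on CTCF, which binds in the promoters and exons, and on cohesin, which brings a chosen promoter to a distant enhancer. The C-type members at the end of the alpha and gamma clusters are less subject to this choice and are expressed more uniformly, and the other members are called alternative here.

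Most promoters of the clusters share a short element with the core CGCT close to the transcription start. RefSeq promoters (GRCh38.p14, from 250 bases before the start to 50 after it) were at hand for 44 of the 52 members, and 41 of those 44 held CGCT on the coding strand within 100 bases upstream of the start, at a median of 60 bases. The windows of 30 bases below surround the first such CGCT match in members whose levels are described later, with CGCT in capitals. All lie on the + strand of chromosome 5, upstream of the first exon, except that the PCDHB5 window runs a few bases past the start. A match of 4 letters does not by itself identify the shared element. Each of the 9-letter forms given below was found in 0 of 4 C-type promoters. Of the alpha cluster, PCDHA12 and PCDHA4 were the members with the most reads, PCDHA8 and PCDHA6 those with the lowest levels, PCDHA10 the member with the smallest p, and PCDHAC2 a C-type member.
PCDHA12 (chr5:140875246-140875275): cagtcacatgatgtCGCTctacactcagaa
PCDHA4 (chr5:140806981-140807010): gagccacatgatgtCGCTctttaccacaaa
PCDHA8 (chr5:140841132-140841161): aagccacatgatgtCGCTgtctaccaagaa
PCDHA6 (chr5:140827899-140827928): gagccgcatgatgtCGCTgtctaccatgaa
PCDHA10 (chr5:140855843-140855872): aagccaccggatgtCGCTgtcgtccacaaa
PCDHAC2 (chr5:140966367-140966396): gagcagtccgggttCGCTgtccgccacttc
The 9 letters GATGTCGCT were found, on either strand, in 8 of 10 promoters of the alternative alpha members, against 0.105% of all 35116 promoters of the same length. PCDHA12 and PCDHA8 carried the same letters at 23 of the 30 positions shown.

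Of the beta cluster, PCDHB2 and PCDHB5 had the highest levels, PCDHB7 one of the lowest, and PCDHB10 was among the members with an unadjusted p under 0.05.
PCDHB2 (chr5:141094546-141094575): gagacgcggggtggCGCTgcagccttagaa
PCDHB5 (chr5:141135181-141135210): aggacgcctggtggCGCTgcaggctaagag
PCDHB10 (chr5:141192301-141192330): aggccacacggtggCGCTgcaggctaaaga
PCDHB7 (chr5:141172568-141172597): aaaacgcaaggtggCGCTgctggctaaaaa
GTGGCGCTG was found, on either strand, in 12 of 13 beta promoters and in 0.572% of all promoters. The core itself is common, since CGCT on either strand was in 97.7% of the members' promoters and in 70.0% of all promoters.

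Of the gamma cluster, PCDHGB4 and PCDHGC4 had the highest levels, PCDHGA7 led the A group, and PCDHGA5 and PCDHGB3 had low levels. PCDHGB5 is shown because its window is the same as that of PCDHGB4.
PCDHGB4 (chr5:141387619-141387648): ctgactctgggcgcCGCTgttggccaaagt
PCDHGB5 (chr5:141397865-141397894): ctgactctgggcgcCGCTgttggccaaagt
PCDHGA7 (chr5:141382651-141382680): aggactcacagcgcCGCTgttcaccaacca
PCDHGA5 (chr5:141364109-141364138): aggactctgagtgtCGCTgttgaccaaagt
PCDHGB3 (chr5:141370164-141370193): gaggcgccgggtgcCGCTcttggctagtgc
PCDHGC4 (chr5:141484954-141484983): ctgagcccgggagcCGCTgtctgccaatcg
PCDHGC3 (chr5:141475882-141475911): gggactctgtgtgcCGCTgtcggccaatga
CGCCGCTGT was in 8 of 17 promoters of gamma A and gamma B members and in 0.604% of all promoters, on either strand. GTGTCGCTG was in 3 of the same 17 and in 0.177% of all promoters. The windows of PCDHGB4 and PCDHGB5 were identical at 30 of 30 positions, and a global alignment of the promoters gave 80.4% identity, the highest of any pair of members. These matches describe the sequence only, and binding of CTCF was not measured.

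Sequencing depth was similar across samples. The reads recovered from the table summed to between 18116816 and 21488793 per sample, and members took between 0.0923% and 0.104% of them. RBM12, the targeted gene, was at 244, 279 and 267 normalized counts untreated and 195, 238 and 233 treated, lower in all 3 pairs (limma adjusted p with the replicate block described below = 0.131), and with no unmodified neurons these values do not check the knockdown. The neuronal and glutamatergic markers MAP2, STMN2, SLC17A6 and SLC17A7 had untreated means of 33644, 65329, 13442 and 3055 normalized counts. All 12 markers of this list were detected, and TUBB3 was the lowest of them, at an untreated mean of 77.7. None of the 12 passed without the block, and with it NEFL, a neurofilament gene, was lower (log2 change -0.045, limma adjusted p with the block 0.000268, lower in all 3 pairs). Of markers of other cells, 3 of 5 for inhibitory neurons (GAD1, GAD2 and SLC32A1) summed to between 55.3 and 59.99 untreated and between 66.9 and 79.0 treated, 2 of 5 for astrocytes (AQP4 and S100B) to 160 to 175 and 134 to 157, and 3 of 4 for oligodendrocytes (MBP, MOG and OLIG2) to 949 to 984 and 1015 to 1102 normalized counts. None of these 8 markers passed the limma test, with or without the block, but in each of the 3 sums the groups did not overlap, and their part in the results below was not tested. Over single genes, the groups did not overlap in 6.19% lower and 6.73% higher. The markers within a sum did not all move alike. The log2 change was 0.74 for GAD1 and 0.49 for GAD2 but -0.38 for SLC32A1. It was 0.13 for MBP and 0.69 for MOG but -0.78 for OLIG2, and MBP (untreated mean 937) made up most of its sum. Both astrocyte markers were lower, AQP4 by -0.27 and S100B by -0.015. For serotonergic neurons, 2 of 4 markers (TPH2 and SLC18A2) summed to 217 to 286 untreated and 212 to 303 treated. For pluripotency, 3 of 6 (POU5F1, LIN28A and SOX2) summed to 19.4 to 19.8 and 15.4 to 28.8. The proliferation marker CCNB1, 1 of 5, was at 112 to 147 and 123 to 145. In these the groups overlapped and no marker was called. As a check of the treatment, 1 of 12 immediate early genes, NR4A3, passed the limma test without the block and 11 passed it, all higher, with the replicate number as a block. Of all genes tested, 0.0165% passed without the block in either direction, and 2.82% were higher with it.

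The first question was which isoforms these neurons expressed. A normalized count is the number of reads of a gene divided by the DESeq2 size factor of its sample. To compare members, this count was divided by the exonic length in kb that a member shares with no other gene in GENCODE release 44. Of the windows of 75 bases within this length, 18.2% in PCDHGB4, 16.4% in PCDHGB5 and 34.3% in PCDHB8, the highest share, were repeated elsewhere in the locus. In 17 of 52 members another gene has exons on the opposite strand, over 1797 of 4098 bases in PCDHB2. Levels were not corrected for either. All 52 members had more than 5 reads in at least 4 samples, as did 18130 of all 19823 genes, so passing this limit is not particular to the members. In all 6 samples 49 members had more than 5 reads, the other 3 being PCDHGA5, PCDHGB3 and PCDHGA8. Levels per kb ran from 1.71 for PCDHGA5 to 1149 for PCDHGB4 among the 49 protein-coding members, a 671-fold range with a median of 30.1. The expression was concentrated in few members. The 8 whose mean reached 1000 normalized counts held 68.4% of all clustered protocadherin counts, and 28 with a mean under 100 held 5.45%. In the order of levels, only 7 of 48 neighbouring pairs had sample ranges that did not overlap, and 5 of those pairs lay among the highest 8 members. Below PCDHGA10, ranked 13, each member overlapped the next.

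**Figure D1:**
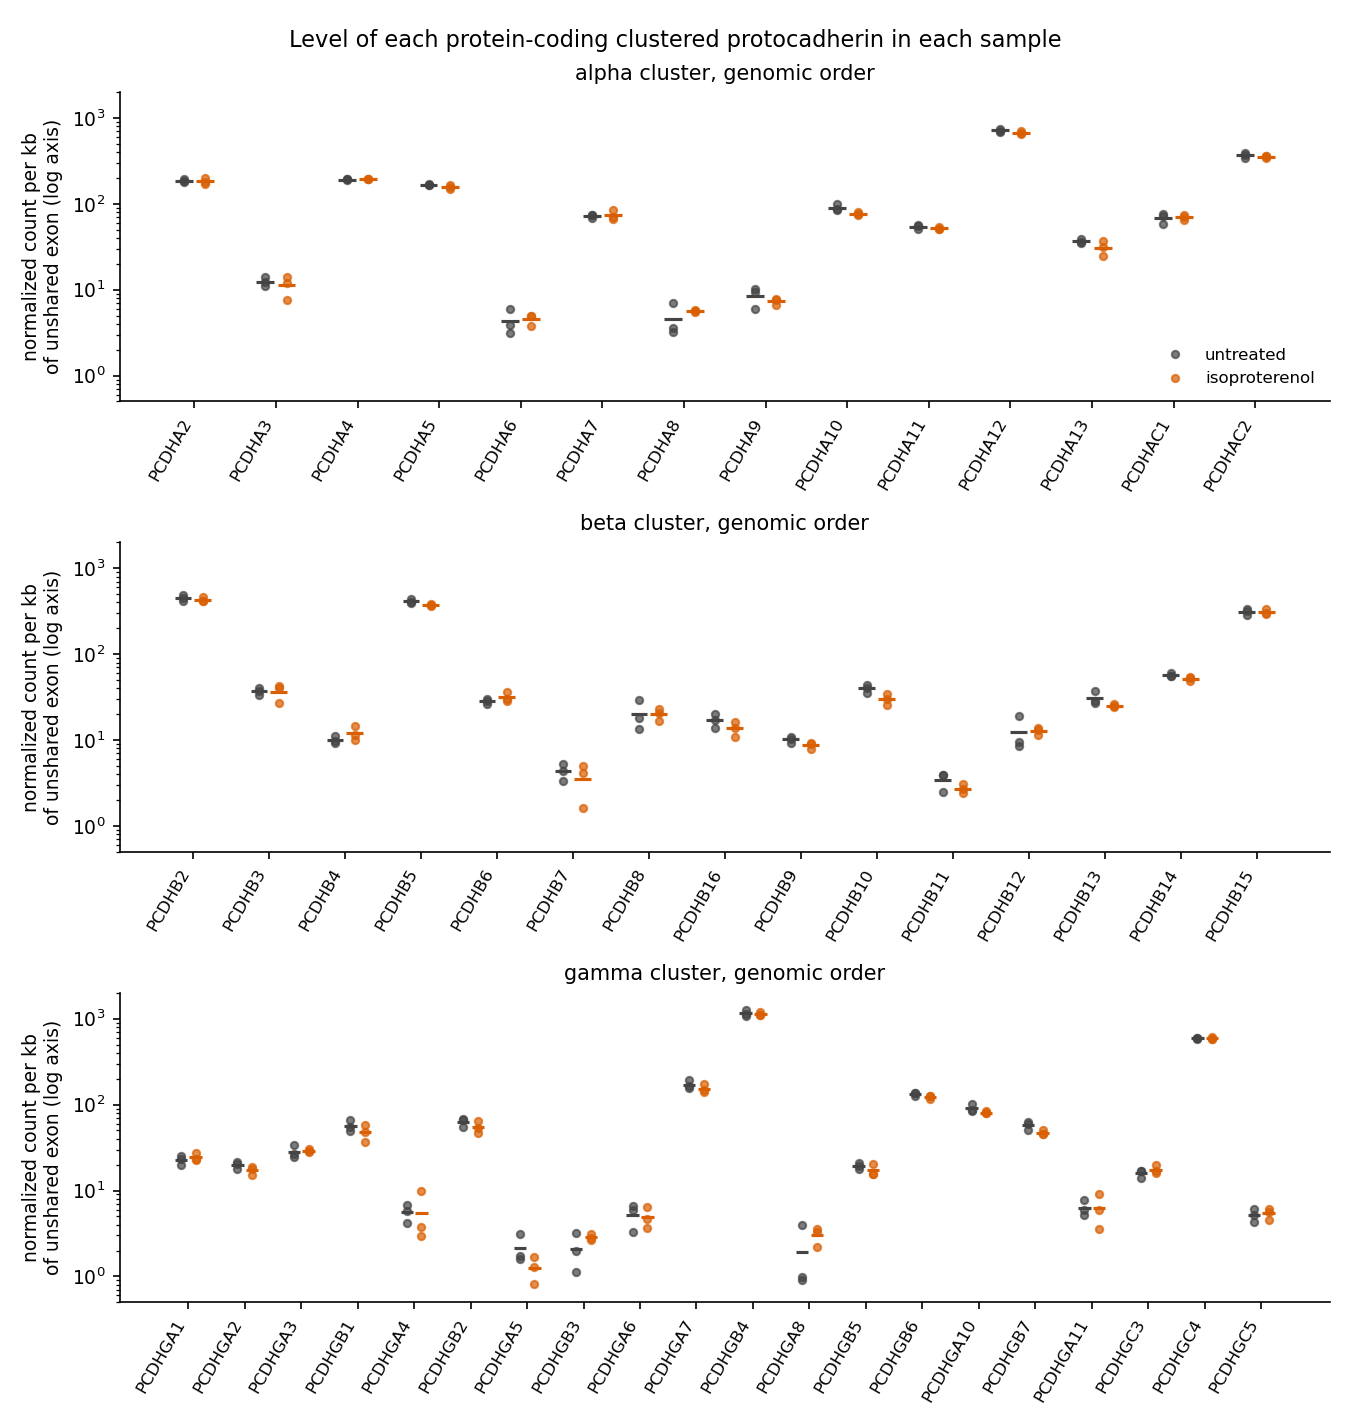
Level of each protein-coding member (normalized count per kb of unshared exon, log axis) in genomic order within the alpha, beta and gamma clusters. Points are the 3 untreated (dark) and 3 isoproterenol (orange) samples and lines are group means. Levels span from 1.71 for PCDHGA5 to 1149 for PCDHGB4, and in each cluster high and low members lie next to each other.

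In the alpha cluster, 5 of 14 members held 82.7% of the counts. PCDHA4 took 25.7% of the cluster and was at 2031, 2054 and 1975 normalized counts untreated and 2056, 2062 and 2073 treated. PCDHA12 was at 1781, 1941 and 1814 normalized counts untreated and 1669, 1843 and 1729 treated. Per kb, PCDHA12 (694) stood above PCDHA4 (193) and PCDHA2 (184), the 3 highest of the alternative alpha members. The annotated unshared exon of PCDHA4 is 10557 bases and that of PCDHA10 is 10355 bases, and per kb of coding sequence alone PCDHA4 ranked 2 of 49 in place of 8. PCDHA2 was at 466, 508 and 484 normalized counts in the untreated samples and 443, 526 and 469 after isoproterenol. The lowest alternative members were PCDHA6, at 12.5, 19.4 and 10.3 normalized counts untreated and 16, 16.1 and 12.3 treated, and PCDHA8, at 8.4, 18.4 and 9.3 normalized counts untreated and 15, 15 and 14.4 treated. PCDHA8 thus lay 136-fold below PCDHA12 per kb although both promoters carry the element shown. Had reads of the shared constant exons been counted for every member, no alpha member could have been as low as PCDHA8. The alpha constant domain binds the kinases FYN and PYK2 and recruits the WAVE complex, which regulates actin.

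In the beta cluster, 3 of 18 members held 80.7% of the counts. PCDHB2 was at 1854, 1982 and 1711 normalized counts untreated and 1693, 1914 and 1686 treated, which was 34.1% of the cluster. PCDHB5 was at 1364, 1503 and 1359 normalized counts in the untreated samples and 1269, 1325 and 1238 after isoproterenol. PCDHB15 was at 1040, 1209.5 and 1129 normalized counts untreated and 1081, 1211 and 1061 treated. Their levels were 441, 394 and 312 per kb, and the ranges of PCDHB2 and PCDHB5 overlapped. The next member by counts, PCDHB14, was at 54.7 per kb. The lowest were PCDHB7, at 19.8, 12.6 and 16.6 normalized counts untreated and 6, 18.5 and 15.4 treated, and PCDHB11, at 10.4, 16.4 and 16.6 normalized counts untreated and 10, 12.7 and 11.3 treated, and PCDHB2 exceeded PCDHB11 143-fold per kb. The 3 high genes are not neighbours: PCDHB4, next to PCDHB5, was 35.7-fold lower per kb than PCDHB5.

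In the gamma cluster, 4 of 20 members held 81.3% of the counts. PCDHGB4 alone took 41.0% and was at 2799.5, 3111 and 2633 normalized counts in the untreated samples and 2738, 2954 and 2724 after isoproterenol. It had the highest level of all members, except that PCDHB2 led when all exonic bases were taken as the length. PCDHGB5, whose element is identical in sequence, was at 52.2, 48.4 and 56.9 normalized counts untreated and 54.9, 42.7 and 42.1 treated, 62.9-fold lower per kb. In the B group PCDHGB6 (128 per kb) and PCDHGB2 (59.1 per kb) came next. PCDHGB2 was at 182, 175 and 145 normalized counts untreated and 124, 168 and 140.5 treated, and PCDHGB3, the lowest, at 8.4, 2.9 and 5.2 normalized counts untreated and 7, 8.1 and 7.2 treated. In the A group the 3 highest were PCDHGA7 (162 per kb), PCDHGA10 (85.9) and PCDHGA3 (28.6). PCDHGA7 was at 536, 632 and 510 normalized counts in the untreated samples and 477, 569 and 455 after isoproterenol. PCDHGA3 was at 65.8, 91 and 71.4 normalized counts untreated and 77.8, 75 and 81 treated. The lowest A members were PCDHGA5, at 6.3, 5.8 and 11.4 normalized counts untreated and 3, 4.6 and 6.2 treated, and PCDHGA8, at 4.2, 3.9 and 16.6 normalized counts untreated and 15, 13.8 and 9.2 treated. In GENCODE release 44 the exons of PCDHGA8 and PCDHGB4 overlap, and reads in the overlap may have been dropped or given to either gene.

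The 5 C-type members were not uniformly high. PCDHGC4, which in mice is needed for the survival of cortical interneurons, was at 1671, 1679.8 and 1641 normalized counts in the untreated samples and 1628, 1618 and 1696 after isoproterenol, the third highest level of all. PCDHAC2, known for its part in the tiling of serotonergic axons, was at 1116, 1222 and 1270.3 normalized counts untreated and 1113, 1196 and 1179 treated. PCDHAC1 was 5.21-fold below it per kb, at 313, 241 and 300 normalized counts untreated and 290.4, 265 and 306 treated. The other C-type members were low: PCDHGC3, linked to dendrite growth in cortical neurons, was at 54.3, 45.5 and 54.8 normalized counts untreated and 51.9, 64.6 and 54.4 treated. PCDHGC5 was at 14.6, 17.4 and 12.4 normalized counts in the untreated samples and 13, 16.1 and 17.4 after isoproterenol, 111-fold below PCDHGC4 per kb. The promoters of 4 C-type members had 15 to 27 CG dinucleotides in their 300 bases, against 2 to 16 in the alternative members of the other groups. The promoter CG count and the level had a Spearman correlation of 0.23 over 44 members, which share a locus and the same libraries. Without the C-type members it was 0.14 over 40. These are levels in bulk RNA, so neither the share of neurons using a promoter nor the combination in a neuron could be read from them, and fewer cells of a type and less RNA per cell cannot be told apart.

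**Figure D2:**
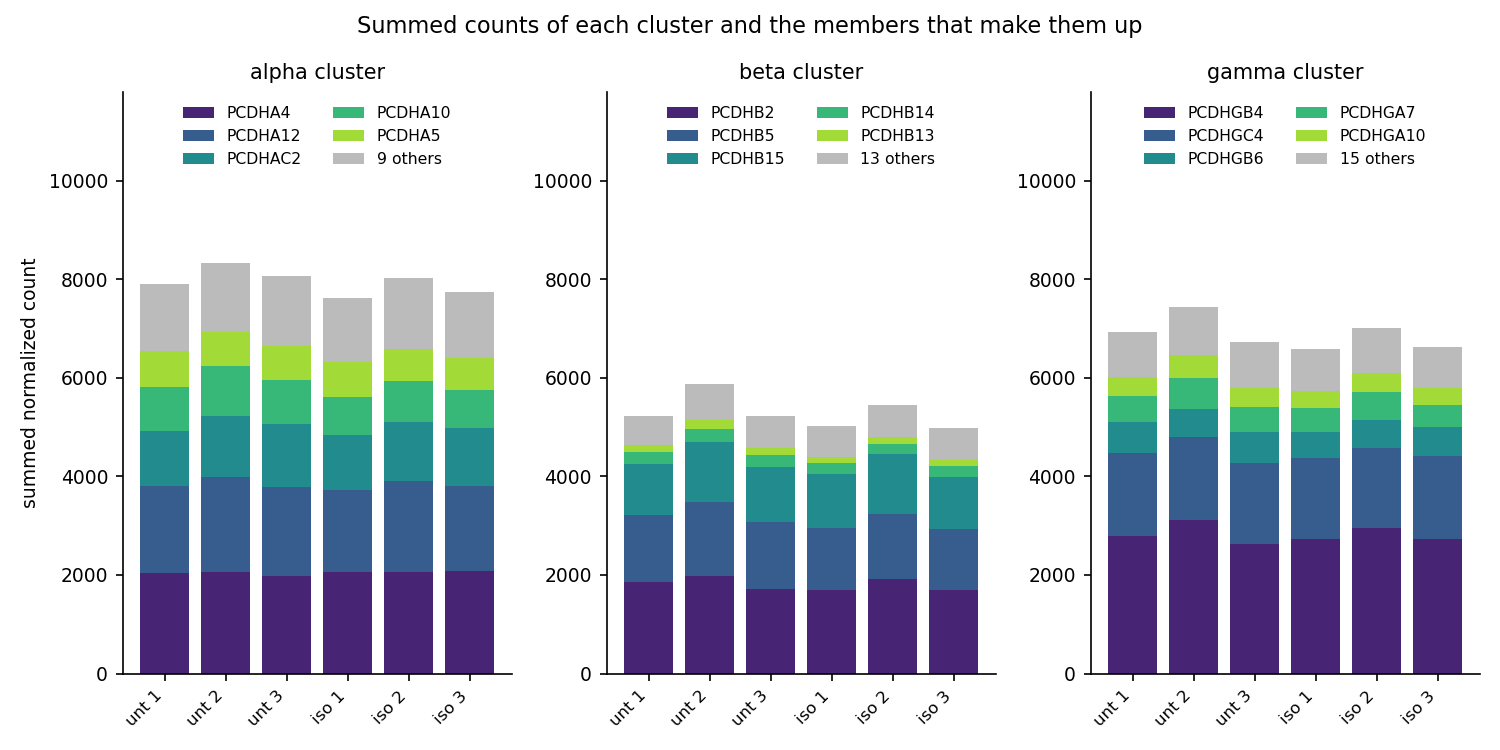
Summed normalized counts of the alpha, beta and gamma clusters in each of 3 untreated (unt) and 3 isoproterenol (iso) samples, with the 5 members that have the most counts in each cluster and the rest in grey. PCDHA4, PCDHB2 and PCDHGB4 lead their clusters in all 6 samples, and the totals of the sample groups overlap.

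Each cluster was concentrated to a similar degree in every sample. The effective number of members, the inverse of the sum of squared shares, was 5.94 to 6.19 in the alpha cluster, 4.21 to 4.43 in the beta cluster and 3.98 to 4.30 in the gamma cluster over the 6 samples. This number is set mostly by the largest shares. Shares of low members varied more, as for PCDHGA8, from 0.052% to 0.25% of the gamma counts. The position of an alternative member along its cluster had a Spearman correlation with its level of -0.077 over 12 alpha, -0.13 over 15 beta and 0.17 over 17 gamma genes.

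The next question was whether isoproterenol changed the clusters. The alpha total was 7902, 8327 and 8065 normalized counts in the untreated samples and 7625, 8021 and 7736 after isoproterenol, 3.75% lower on average. The beta total was 5231, 5884 and 5219.9 against 5013, 5449 and 4982, 5.46% lower. The gamma total was 6928, 7444 and 6722 against 6595, 7009.5 and 6628, 4.08% lower. In each cluster the groups overlapped, and replicate 2 was the highest sample of its group. Between samples with the same number, the log2 ratio was -0.052, -0.054 and -0.060 for alpha, -0.062, -0.11 and -0.067 for beta and -0.071, -0.087 and -0.020 for gamma, so all 9 within-pair ratios were below 0. The 9 ratios come from the same 3 pairs of libraries, so they are not independent. These totals are given without a test. Leaving out untreated replicate 2 brought the log2 ratio of the group means from -0.081 to -0.022 for beta, from -0.060 to -0.017 for gamma and from -0.055 to -0.035 for alpha. The ratio was -0.12 for beta without isoproterenol replicate 2 and -0.092 for gamma without untreated replicate 3.

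Single members were tested with limma on log2(normalized count + 1) over all 18130 genes with more than 5 reads in at least 4 samples. Folds are on this scale, which understates the change of low genes. No member passed an adjusted p of 0.05 (Benjamini-Hochberg over all genes), where 0.0165% of all genes tested did. At an unadjusted p under 0.05, edgeR without the block gave 4 lower members (background 3.64%) and 1 higher (background 4.39%), and DESeq2 gave 3 lower (background 2%) and 1 higher (background 2.71%). Neither called a member at an adjusted p of 0.05, where edgeR called 0.0165% of all genes and DESeq2 0.15% of the genes to which it gave an adjusted p, which left out 11 of the 52 members. Unadjusted limma p-values under 0.05 were found for 4 lower members (background 3.29%) and 1 higher (background 4.39%). Samples with the same number deviated together over all genes, so the numbers were taken as pairs. With the replicate number as a block, limma called 2 members lower, PCDHA10 and PCDHB5, and 1 higher, PCDHB18P, against a background of 2.06% of all genes lower and 2.82% higher. The lower members made up 3.85%, near the share of all genes, which is not a result about the members as a set. edgeR with the block also called 2 members lower (background 2.47%) and 1 higher (background 2.92%). DESeq2 with the block called 0 of the 38 members to which it gave an adjusted p, against 0.999% of all such genes, and the 14 without one included PCDHB18P. At an unadjusted p under 0.05 it gave 2 lower members (background 2.21%) and 1 higher (background 2.71%).

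PCDHA10 had the lowest p of the members in the block fit. It was at 888, 1017 and 891 normalized counts untreated and 771, 830.3 and 782 treated. All isoproterenol samples lay below all untreated samples, and the log2 change was -0.23 ± 0.068 (SE, n = 3 per group, limma adjusted p = 0.371, with the block 0.00233). Within pairs the change was -0.20, -0.29 and -0.19. DESeq2 with the block gave an adjusted p of 0.284. A lncRNA on the opposite strand of its exon, AC005609.4, was at 16.7, 7.7 and 14.5 normalized counts untreated and 14, 12.7 and 21.5 treated, and its groups overlapped.

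PCDHB5 was at the values given above, again with no overlap between groups. Its log2 change was -0.14 ± 0.057 (limma adjusted p = 0.595, with the block 0.0393), and within pairs -0.10, -0.18 and -0.13. For the other high beta genes the log2 change was -0.067 for PCDHB2 (limma 95% interval -0.20 to 0.063) and -0.011 for PCDHB15 (-0.15 to 0.13), and whether they differ from PCDHB5 was not tested.

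PCDHB18P, a transcribed pseudogene of the beta cluster, went the other way. It was at 15.7, 21.3 and 18.6 normalized counts untreated and 33.9, 46.1 and 33.9 treated, so every treated sample exceeded every untreated one. The log2 change was 0.99 ± 0.27 (limma adjusted p = 0.280, with the block 0.0211), and within pairs it was 1.07, 1.08 and 0.83. In GENCODE release 44 all 2368 bases of this row (chr5:141234551-141236918) lie within exons of another gene entry of the same name, so its reads cannot be given to 1 entry. The other pseudogenes were PCDHB17P, at 6.3, 19.4 and 9.3 normalized counts untreated and 8, 11.5 and 17.4 treated, and PCDHB19P, at 15.7, 9.7 and 12.4 normalized counts in the untreated samples and 7, 8.1 and 13.3 after isoproterenol, with overlapping groups. All 2393 exonic bases of PCDHB17P and 2173 of 2371 of PCDHB19P also lie within exons of another gene entry.

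**Figure D3:**
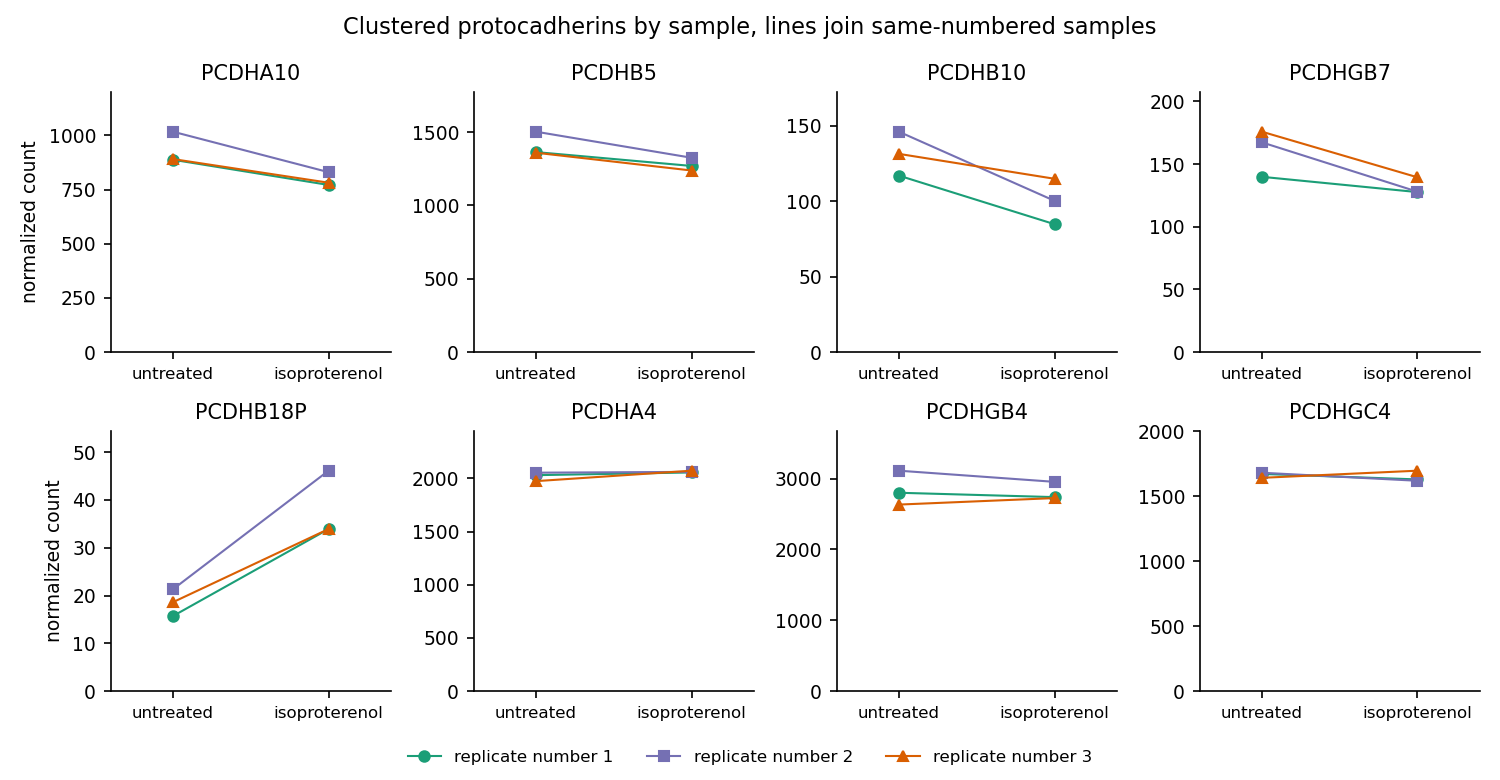
Normalized counts (axis from 0) of 8 members in the untreated and isoproterenol samples, with lines joining samples of the same replicate number. PCDHA10, PCDHB5, PCDHB10 and PCDHGB7 are lower and PCDHB18P is higher in all 3 pairs, whereas PCDHA4, PCDHGB4 and PCDHGC4 change little.

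The other members with an unadjusted p under 0.05 were all lower with isoproterenol. PCDHB10 was at 117, 146 and 131 normalized counts untreated and 84.8, 100.3 and 115 treated, a log2 change of -0.40 ± 0.15 (limma adjusted p = 0.575, with the block 0.0889). PCDHGB7 was at 139.9, 167 and 176 normalized counts untreated and 128, 128 and 139.5 treated (-0.28 ± 0.13, limma adjusted p = 0.639, with the block 0.216). In neither did the groups overlap. With the block, an unadjusted p under 0.05 was found for 9 lower members (background 7.45%) and 1 higher (background 8.7%), which adds PCDHA12, PCDHB13, PCDHGB1, PCDHGA7 and PCDHGA10 to those above. PCDHB13 was at 143, 188 and 136 normalized counts untreated and 125, 135 and 123 treated. PCDHGB1 was at 142, 172 and 129 normalized counts in the untreated samples and 149, 126 and 96.4 after isoproterenol. PCDHGA10 was at 375, 453 and 390 normalized counts untreated and 355, 375 and 352 treated. The log2 changes of these 5 were -0.079, -0.27, -0.27, -0.16 and -0.17, in that order, and the smallest limma adjusted p among them with the block was 0.172.

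Counted over the clusters, the treated samples lay wholly below the untreated ones in 8 members, or 15.4%, where 6.19% of all tested genes did. These were PCDHA10, PCDHB5, PCDHB10, PCDHB13, PCDHB14, PCDHGB6, PCDHGA10 and PCDHGB7. PCDHB14 was at 237, 258 and 237 normalized counts untreated and 226, 206 and 229.8 treated, and PCDHGB6 at 629, 582 and 622 normalized counts untreated and 539, 580.1 and 574 treated. They lay wholly above in 2 members, PCDHB18P and PCDHA4, where 6.73% of all genes did. For PCDHA4 the log2 change was 0.031 ± 0.047 (limma 95% interval -0.068 to 0.13). Within pairs, 17 members, or 32.7%, were lower in all 3 pairs and 3 were higher in all 3, where the background was 17.6% and 18.5%.

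Across all 52 members the median log2 change was -0.079, where the median over all tested genes was 0.0015. The change was below 0 in 35 members, or 67.3%, where 49.5% of all genes were below 0. The direction of the median was the same under TMM scaling and total-count scaling. The medians of the same-numbered pairs were -0.048, -0.082 and -0.065. The lower values lay mostly in members with more reads. Of the 24 whose mean reached 100 normalized counts, 21 were below 0 and 14 were lower in all 3 pairs, where the shares among all genes of that level were 51.2% and 20.7%. Of the 28 members below a mean of 100, 14 were below 0. This split was chosen after the values were seen, and members share a locus, libraries and regulation, so they are not independent. The median rested on single samples, and was -0.012 without isoproterenol replicate 1, -0.12 without untreated replicate 1 and -0.039 without untreated replicate 2.

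**Figure D4:**
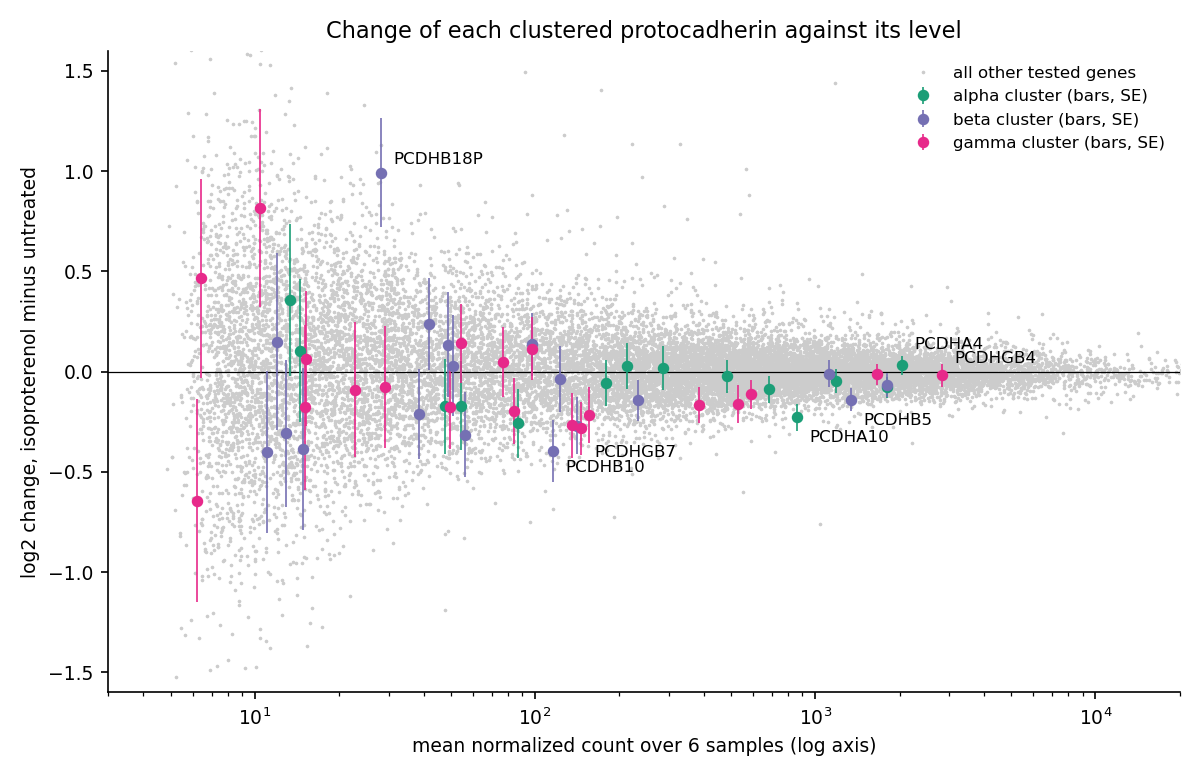
Log2 change with isoproterenol (limma, isoproterenol minus untreated) against the mean normalized count over 6 samples (log axis) for the 52 members, coloured by cluster with SE bars, and for the other tested genes in grey (points outside the axes are not shown). Members with a mean of at least 100 mostly lie just below 0, and low members scatter on both sides.

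By group, the median log2 change was -0.069 over 12 alternative alpha members, -0.10 over 18 beta, -0.13 over 10 gamma A and -0.18 over 7 gamma B members, and 0.019 over the 5 C-type members. Whether the groups differ was not tested. Among C-type members no change passed the test and the groups overlapped in all 5. The log2 change was -0.048 for PCDHAC2 (limma 95% interval -0.18 to 0.079) and -0.014 for PCDHGC4 (-0.12 to 0.090). It was 0.019 for PCDHAC1 (-0.21 to 0.25), 0.14 for PCDHGC3 (-0.28 to 0.56) and 0.065 for PCDHGC5 (-0.64 to 0.77). For the leading gamma gene PCDHGB4 it was -0.019 (-0.14 to 0.10). In the 11 members with a mean under 20 normalized counts the errors were wide at this depth, as in PCDHGA5 (-0.64 ± 0.51) and PCDHGA8 (0.82 ± 0.49).

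Genes near the clusters and genes of their pathway were read next. Of 37 tested genes within 500 kb of the clusters, 0 passed the limma test without the block (background 0.0165%). Without the block, 3 had an unadjusted p under 0.05 (background 3.29% lower, 4.39% higher). With the block 1 was higher (background 2.82%) and 1 lower (background 2.06%), near the shares of all genes. FCHSD1, encoding an F-BAR protein, was at 327, 387 and 365 normalized counts in the untreated samples and 409, 468 and 493 after isoproterenol (log2 change 0.34, limma adjusted p with the block 0.00104). ARAP3, a GTPase-activating protein gene, was at 202, 273 and 234 normalized counts untreated and 155, 239 and 167 treated (-0.35, limma adjusted p with the block 0.0297). The next by p was NDUFA2, a complex I subunit gene (-0.16, limma adjusted p with the block 0.156). The antisense lncRNA AC005609.5, which overlaps PCDHA3, PCDHA5 and PCDHA6 on the other strand, was at 347, 392 and 358 normalized counts untreated and 310.3, 348 and 330.3 treated, with groups that overlapped and all 3 pairs lower (limma adjusted p with the block 0.368).

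Of 25 regulators of the clusters, among them CTCF, cohesin subunits, DNA methyltransferases and histone methyltransferase complexes, 0 passed without the block (background 0.0165%). Without the block, 1 had an unadjusted p under 0.05 (background 3.29% lower, 4.39% higher). With the block 1 was higher (background 2.82%) and 0 were lower (background 2.06%). WIZ, a zinc finger protein of the G9a/GLP complex, was at 2854, 2879 and 2839.6 normalized counts untreated and 3041, 3198 and 3117 treated (0.13 ± 0.044, limma adjusted p = 0.497, with the block 0.00620). The next were TET1 (-0.20), PDS5A (0.085) and RAD21 (-0.067), none of which passed. Of 22 genes for cleavage and cytoplasmic partners of the proteins, 0 passed without the block, with 1 at an unadjusted p under 0.05. With the block only CYFIP2 passed, and it was higher (background 2.82%). CYFIP2, a WAVE complex subunit, was at 10798, 10242 and 10557 normalized counts in the untreated samples and 11258, 10935 and 11084 after isoproterenol (0.075 ± 0.036, limma adjusted p with the block 0.0193). WASF1, of the same complex, had a log2 change of 0.087 (limma adjusted p with the block 0.0611), and the protease gene ADAM10 one of -0.11.

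Other cadherins outside the clusters gave 0 calls of 26 without the block (background 0.0165%). Without the block, 6 had an unadjusted p under 0.05 (background 3.29% lower, 4.39% higher). With the block 3 were higher (background 2.82%) and 5 lower (background 2.06%, or 3.13% among genes whose mean reached 100). Lower were PCDH10 (-0.19), CDH2, which encodes N-cadherin (-0.15), PCDH7 (-0.13), PCDH11X (-0.14) and PCDH9 (-0.090), all given as limma log2 changes. PCDH10, a δ-protocadherin with a part in synapse elimination, was at 8792, 10436 and 8505 normalized counts untreated and 7674, 9157 and 7540.4 treated, with groups that overlapped and all 3 pairs lower (limma adjusted p with the block 3.36e-10). CDH2 was at 11358, 12881 and 11586 normalized counts untreated and 10207, 11526 and 10538 treated (limma adjusted p with the block 3.43e-08). Higher were CDH13, encoding the GPI-anchored T-cadherin, at 2910.2, 2957 and 3149 normalized counts untreated and 3491, 3288 and 3597 treated (0.20, limma adjusted p with the block 6.04e-07), FAT1 (0.22) and DCHS2 (0.18). Of those not called, FAT2 (0.52, limma adjusted p with the block 0.127) had the smallest unadjusted p without the block. With the block, PCDH8 (-0.084, limma adjusted p 0.0967) and CELSR3 (0.081, limma adjusted p 0.111) had smaller ones than FAT2.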

How the data were processed

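RNA-seq was carried out on 3 untreated and 3 isoproterenol-treated samples, grouped and numbered by their titles. Poly(A) libraries were directional, per the labels. The authors aligned reads to GRCh38 with STAR and counted them per gene with featureCounts, and the deposited table holds the signal after division by DESeq2 size factors, a normalized count. Tool versions, annotation and the strand setting are not given in the sources used here. Every value was a whole multiple of 1 step per sample (100% within 0.001), which gave back reads. The members and gene lists were chosen with earlier results of these data known. Lengths came from GENCODE release 44 (99.6% of identifiers found) and promoters from RefSeq.

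limma 3.58.1 (trend, robust) was fitted to log2(normalized count + 1) of 18130 genes with more than 5 reads in at least 4 samples, with Benjamini-Hochberg adjustment and no block. The fit was tested on simulated data with independent samples. These held no effect of the replicate number, so they do not bear on the pairing. Alternatives were a replicate block, edgeR 4.0.16 and DESeq2 1.42.0, each with and without the block, TMM and total-count scaling, other filters and pseudocounts, and leaving out each sample. Deviations from the group means of same-numbered samples correlated at 0.27, 0.49 and 0.39 across 11587 genes whose mean reached 100, and each exceeded the 0.1 required, so same-numbered samples were treated as pairs. This pairing comes from the data, not from the labels.

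Members named with values in every sample were, in the alpha, beta, gamma A and gamma B groups, the 3 highest and 2 lowest by level, all C-type members, those with an unadjusted p under 0.05 with or without the block, and those whose groups did not overlap, 32 in all. Of the lists, members past an adjusted p of 0.05 and up to 3 further with the smallest p were named. Immediate early genes and neuronal markers were read as checks. PCDHB4, PCDHB17P, PCDHB19P and the lncRNAs were named after their values were seen.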

Additional observations from a re-analysis of the deposited data

How the results depend on the processing

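The count of members past an adjusted p of 0.05 was 0 in limma without the block and 3 with the replicate block, and 3 in edgeR with the replicate block. It was 0 in edgeR and DESeq2 without the block, in DESeq2 with the block, under TMM and total-count scaling, other filters and pseudocounts, and without any 1 sample. The block changed no other member's call. With the block the calls in the lists went from 0 to 8 for other cadherins, 1 for cluster regulators, 1 for cytoplasmic partners, 2 for neighbouring genes and 1 for neuronal markers, and from 1 to 11 for immediate early genes. Over all genes tested the limma calls went from 3 to 885. The cause of the difference between limma or edgeR and DESeq2 under the block was not tested.

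The median log2 change of the members stayed below 0 under every alternative, from -0.12 to -0.012 when 1 sample was left out. The log2 ratio of the cluster totals also stayed below 0, from -0.076 to -0.035 for alpha, -0.12 to -0.022 for beta and -0.092 to -0.017 for gamma when 1 sample was left out. Among named members with no call, leaving out 1 sample turned the direction for PCDHA2 (-0.092 to 0.032), PCDHA6 (-0.080 to 0.34), PCDHAC1 (-0.097 to 0.092), PCDHB7 (-0.67 to 0.065), PCDHB15 (-0.070 to 0.042), PCDHGA3 (-0.048 to 0.18), PCDHGB4 (-0.074 to 0.046) and PCDHGC5 (-0.048 to 0.18). PCDHA10 ran from -0.26 to -0.16, PCDHB5 from -0.17 to -0.092 and PCDHB18P from 0.85 to 1.09 over all alternatives, with limma, edgeR or DESeq2 adjusted p-values from 0.00117 to 0.935, 0.0268 to 0.935 and 0.0211 to 0.836, except that DESeq2 with the block gave PCDHB18P no adjusted p. Dividing by all exonic bases put PCDHB2 first in place of PCDHGB4, and dividing by unshared coding bases or by no length, both chosen after seeing the data, kept 8 of the 9 highest members. Low counts limited members with a mean under 20.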

Other observations

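Members whose promoters were most alike did not always have like levels. After PCDHGB4 and PCDHGB5, the next closest promoters were those of PCDHGB6 and PCDHGB7, with 73.8% identity in a global alignment and levels per kb that differed 2.43-fold. PCDHB8 and PCDHB13 followed at 71.3% and 1.39-fold, and PCDHA7 and PCDHA9 at 65.6% and 9.25-fold. PCDHGA8 and PCDHGA10 had 59.6% identity and differed 34.7-fold. Promoters within a group had a median identity of 52.6% to 55.0% for the alternative groups, and promoters of different groups 50.8%. These are values over pairs that share genes, with no test.

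The 24 members whose mean reached 100 normalized counts had a median residual SD of 0.10 on the log2 scale, where it was 0.083 over 11587 genes of that level. With the replicate block these values were 0.061 and 0.057.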
